A study of Mus musculus with 12 samples.

Results

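The transcripts described here are those of the amino acid transporter families Slc1, Slc3, Slc7, Slc36, Slc38 and Slc43 in cultured mouse mast cells. Members were all genes whose symbol starts with one of these family names and that have a probe set annotated to that symbol alone. This gave 42 genes with 89 probe sets, of 18193 genes on the array with such a probe set. Slc7a6os and Slc36a1os match by name but are genes on the opposite strand and encode no transporter of these families. The other 40 of the 42 are named as members of the families, and not all of them carry amino acids. The Slc1 family had 7 genes, Slc3 2, Slc7 16 with Slc7a6os, Slc36 5 with Slc36a1os, Slc38 9 and Slc43 3.

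The data come from 12 Affymetrix arrays of a single colour, each with a separate sample of mast cells grown from the bone marrow of C57BL/6 mice. For 6 samples, 4 to 6 weeks of culture took place in interleukin 3 (IL3, 30 ng/ml), a growth factor that both groups received. In the other 6 the medium also held stem cell factor (SCF, the ligand of the receptor KIT), at 100 ng/ml unless another dose was stated, and the labels name no other dose. Nothing in the labels tells whether the 6 replicates were separate cultures or animals. The p-values therefore speak of the spread among these samples alone, and that spread may be technical.

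Mammalian cells cannot make every amino acid and take them up through carriers of the solute carrier (Slc) families. Some carriers at the cell surface import glutamine and other neutral amino acids with sodium, and others exchange one amino acid for another, often as a pair of a Slc7 light chain and an Slc3 heavy chain joined by a disulfide bond. A further group sits on the lysosome and returns amino acids from degraded protein to the cytosol, where their supply is read by the kinase complex mTORC1. Several carrier genes carry promoter elements bound by C/EBP and ATF factors that act when amino acids are scarce.

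On these arrays, 25 of the 42 genes gave enough signal to be tested and 17 did not. With SCF, Slc38a2, Slc38a7, Slc38a9 and Slc7a4 rose and Slc3a2 and Slc43a3 fell, by 0.26 to 0.57 on the log2 scale. The other 19 did not pass the test, and none of the 25 changed 2-fold. That is 24% of the tested members, where 35.4% of all 11429 tested genes passed (limma, Benjamini-Hochberg adjusted p below 0.05). With each array centred on its median, 2 members rose (Slc38a7 and Slc7a4) and 0 fell, in place of 4 and 2. Over all genes 24.3% then passed, in place of 35.4%.

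The 300-base promoter windows of 4 members, from 250 bases before to 50 after the annotated start, are shown first because the 4 motifs searched for occur in them, and because the first 2 genes rose with SCF. The motifs were the C/EBP-ATF element (TGATGNAA), the E box (CACGTG), the M box bound by the mast cell factor MITF (TCATGTG) and the core of the antioxidant element (TGACNNNGC), on both strands. Capitals mark the matches, and where an E box and an antioxidant core overlap they form a single run. All are RefSeq sequences of GRCm38.p6, written 5′ to 3′ on the strand of the gene. Slc38a7 lies at chr8:95853442-95853741 (minus strand), Slc38a2 at chr15:96699679-96699978 (minus), Slc7a11 at chr3:50443564-50443863 (minus) and Slc36a1 at chr11:55204090-55204389 (plus).
Slc38a7: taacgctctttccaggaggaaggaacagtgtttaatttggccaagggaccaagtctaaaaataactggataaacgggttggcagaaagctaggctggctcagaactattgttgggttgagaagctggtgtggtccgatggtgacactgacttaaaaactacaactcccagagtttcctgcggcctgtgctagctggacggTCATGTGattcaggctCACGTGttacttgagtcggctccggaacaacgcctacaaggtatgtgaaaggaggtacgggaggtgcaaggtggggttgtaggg
Slc38a2: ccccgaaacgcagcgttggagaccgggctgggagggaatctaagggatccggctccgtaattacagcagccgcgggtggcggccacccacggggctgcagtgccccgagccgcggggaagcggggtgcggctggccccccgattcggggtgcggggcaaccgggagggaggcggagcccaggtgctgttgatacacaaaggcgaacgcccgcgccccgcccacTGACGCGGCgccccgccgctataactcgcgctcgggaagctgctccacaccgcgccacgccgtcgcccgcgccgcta
Slc7a11: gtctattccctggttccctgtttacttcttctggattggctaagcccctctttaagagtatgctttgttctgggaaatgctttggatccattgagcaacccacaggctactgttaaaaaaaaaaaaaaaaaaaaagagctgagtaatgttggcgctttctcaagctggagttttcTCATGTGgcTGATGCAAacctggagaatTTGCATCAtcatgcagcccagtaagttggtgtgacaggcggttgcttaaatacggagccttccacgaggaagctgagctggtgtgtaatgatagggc
Slc36a1: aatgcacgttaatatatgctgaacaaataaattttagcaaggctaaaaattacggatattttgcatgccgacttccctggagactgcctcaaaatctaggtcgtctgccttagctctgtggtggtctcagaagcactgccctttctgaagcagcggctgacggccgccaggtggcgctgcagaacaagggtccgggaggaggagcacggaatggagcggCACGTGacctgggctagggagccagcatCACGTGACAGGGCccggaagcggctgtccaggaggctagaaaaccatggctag

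In these windows Slc38a7 had an M box at position -50 and an E box at -34 from its start. Slc7a11, a cystine carrier gene known as a target of the amino acid response, had 2 C/EBP-ATF elements at -66 and, on the other strand, -47, and an M box at -75. Slc36a1 had E boxes at -31 and -3 and an antioxidant core at 2, and Slc38a2 an antioxidant core at -27. A match describes letters only and is not a site of binding.

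Promoter windows were given for 31 of the 42 genes, 42 windows in all. The C/EBP-ATF element lay in 4 of the 42 (9.52%), against 3.97% of all 32851 windows of the same length. E boxes lay in 7 (16.7%, against 7.15%), M boxes in 2 (4.76%, against 3.77%) and antioxidant cores in 7 (16.7%, against 12.4%). Of these, E boxes lay in 2 of 20 windows of tested members (10%) and in 5 of 22 of members not tested (22.7%). For antioxidant cores these counts were 5 (25%) and 2 (9.09%), for M boxes 2 and 0, and for the C/EBP-ATF element 2 and 2. The C/EBP-ATF windows belonged to Slc1a4, Slc7a7 with 2 windows, and Slc7a11. Windows of a gene can overlap: 1 element is shared by these windows of Slc7a7, and 1 antioxidant core by 2 windows of Slc7a6, so the 7 windows with that core belong to 6 genes. Of the 6 genes that passed the test, Slc38a2, Slc38a7, Slc38a9 and Slc3a2 had a window, and 0 of these 4 held the C/EBP-ATF element. Bases outside the windows were not searched, so an element elsewhere in these genes is not excluded. Windows of tested members held a median of 20.5 CpG dinucleotides, those of members not tested 7.5 and all windows 7. Windows of the other tested genes were not summarized apart, so these medians do not compare the members with them.

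Mast cell markers were compared between the groups. That comparison shows whether they changed with SCF and cannot check the label of the cells. All 11 markers on the array were tested and 0 passed, although 2 rose with the mean or most variable probe set. A single one rose with a pseudocount of 64, the 60th percentile filter, array weights or the replicate block, and without SCF replicate 5 or 6. The one with the smallest p was Hdc, which makes histamine (log2 change 0.62, adjusted p = 0.0543). Kit lay between 17570 and 21200 in IL3 and between 18650 and 20110 with SCF. Of 12 neutrophil markers 1 was bright enough to test, Mmp8, with a log2 change of -0.34, and it did not pass. These genes of granules and chemotaxis were near background on most arrays. Their summed signal ran from 434.7 to 7393 in IL3 and from 276.9 to 500.1 with SCF. IL3 replicates 3 and 6 stood apart by S100a8 (1773 and 2153) and S100a9 (2776 and 3475). Of 13 monocyte and macrophage markers 7 were tested, 1 rose (Cd68, 1.28) and 4 fell (among them Cx3cr1, -3.90, and Lyz1, -1.96). The summed signal of those 13 was 17250 to 23580 in IL3 and 5114 to 6448 with SCF. The ranges of this sum did not overlap between the groups, as was the case for 19.1% of all single genes tested. Of basophil markers 2 of 5 rose and 2 fell. Of eosinophil markers 1 of 3 rose (Il5ra, 1.04), and of erythroid and megakaryocyte markers 2 of 5 rose. Each marker count in this paragraph stands against 18.9% risen and 16.6% fallen of all genes. The marker lists carry no test of their own. Both tested lymphocyte markers fell (among them Ighm, -2.55), as did 1 of 3 stromal markers (Pdgfrb, -2.30). The count of fallen lymphocyte markers was 1 with a pseudocount of 1, without IL3 replicate 1, 2, 3 or 6, without SCF replicate 3, 4, 5 or 6, and without IL3 replicates 3 and 6 together. With the 60th percentile filter 0 lymphocyte and 0 stromal markers fell. Under some settings the counts of the neutrophil, eosinophil and erythroid lists moved by 1 or 2 genes, and 1 eosinophil marker fell without IL3 replicate 5 or without SCF replicate 3. The part of other cells in the transporter values was not tested. In bulk RNA, fewer cells of a type and less RNA per cell cannot be told apart.

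Without IL3 replicates 3 and 6, Slc38a2 (0.29), Slc38a7 (0.54), Slc7a4 (0.50) and Slc3a2 (-0.27) still passed the test. Slc38a9 (0.30, adjusted p = 0.0534) and Slc43a3 (-0.22, adjusted p = 0.131) no longer did, and Slc36a1 then did (-0.27, adjusted p = 0.0260).

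An array's dim level was its 40th percentile over all probe sets, a signal of 61.1 to 102 depending on the array. A gene was tested when a probe set of it exceeded that level on at least 6 of the 12 arrays, and was then read from its brightest such probe set. By this rule 20 of the 25 tested genes exceeded the level on all 12 arrays. All 6 genes that passed the test were among these 20.

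The 5 others were dim on some arrays. Slc1a2, a glutamate carrier best known from astrocytes, exceeded the level on 4 arrays of each group, and Slc7a11 on 3 of each. Slc7a3, a carrier of cationic amino acids, did so on 2 IL3 and 5 IL3+SCF arrays. Slc7a12, a carrier of small neutral amino acids, did so on 5 and 4, and Slc7a13, which carries aspartate and glutamate, on 5 and 1. Their intervals were the widest of the list, and a gene such as Slc7a13 entered the test mainly through its brighter group.

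Of the 17 genes that were not tested, 11 had no array above the dim level in any probe set. These were Slc1a1 and Slc1a6 (glutamate carriers), Slc7a2 (cationic amino acids), Slc7a7 and Slc7a10 (light chains that pair with Slc3a2), Slc7a14, Slc7a15, Slc38a4 and Slc38a5 (neutral amino acids), Slc43a1 (large neutral amino acids) and Slc36a1os. The other 6 (Slc1a3, Slc1a7, Slc7a9, Slc36a2, Slc36a3 and Slc38a3) had at least 1 such array and at most 5, the most being Slc1a3, a glutamate carrier of glia. A dim signal sets only a bound on these probes and does not show that a gene was silent.

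**Figure D1:**
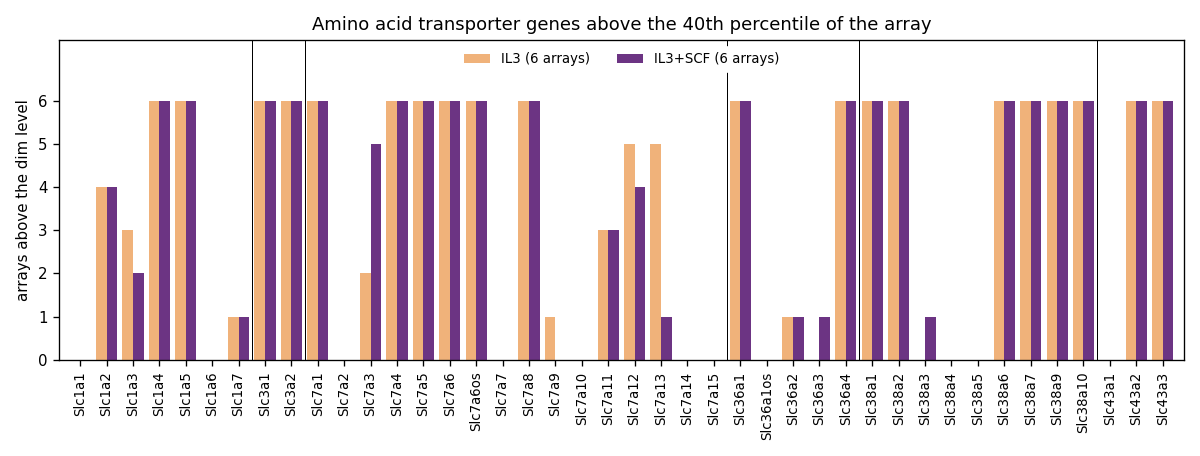
Number of arrays (of 6 IL3, orange, and 6 IL3+SCF, purple) on which the probe set of each of the 42 genes exceeded the 40th percentile of its array, families divided by lines. The 20 genes with both bars at 6 were above that level everywhere, and 11 genes have no bar.

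Across the tested members the median log2 change was -0.034, and that of all genes was 0.023. Changes ran from -0.42 (Slc7a13, not passed) to 0.57 (Slc7a4), and the median size without regard to sign was 0.14, against 0.18 over all genes. In each direction, 4 of 25 members rose, where 18.9% of all genes did, and 2 fell, where 16.6% did. At least 2-fold changes with an adjusted p below 0.05 made up 4.86% of all genes and 0 of the members. The 12 arrays split without overlap between the groups for 2 members, Slc38a2 and Slc38a7 (8%), and for 19.1% of all genes. Of the 25 members, 18 had a 95% interval that lay wholly within 0.5 log2 units of no change (72%, against 63.2% of all genes), 14 of them among the 19 that did not pass.

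**Figure D2:**
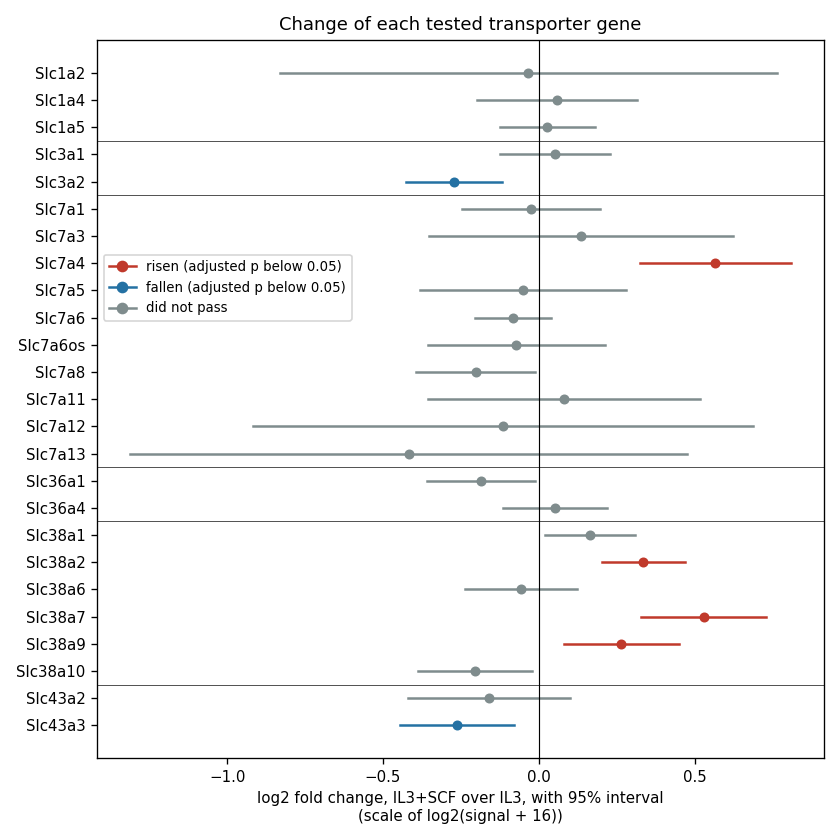
Log2 fold change of IL3+SCF over IL3 on the scale of log2(signal + 16) for each of the 25 tested genes, with its 95% interval (n = 6 arrays per group), families divided by lines. The 4 risen genes (red) lie between 0.27 and 0.57, the 2 fallen ones (blue) at -0.27 and -0.26, and the 5 partly dim genes have the widest intervals.

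The Slc38 family, sodium-coupled carriers of glutamine and other neutral amino acids together with lysosomal relatives, had 3 of its 6 tested genes risen and 0 fallen, where 18.9% and 16.6% of all genes did so. Its median log2 change was 0.21. On chromosome 15 its genes Slc38a1, Slc38a2 and Slc38a4 follow one another with no protein-coding gene between them in the RefSeq order. Of these 3, Slc38a2 rose, Slc38a1 did not pass and Slc38a4 was too dim to test.

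Slc38a2 encodes SNAT2, a plasma membrane carrier of small neutral amino acids that cells make more of when amino acids run short. Its brightest probe set read 3772, 4009 and 4656 in IL3 (lowest, median and highest) and 4776, 5086 and 5538 with SCF. Every SCF array lay above every IL3 array. The means were 4073 ± 329 and 5135 ± 282 (SD, n = 6), and the log2 change was 0.34 ± 0.06 (SE, adjusted p = 0.00108). Its 2 dimmer probe sets gave 0.12 and 0.17 and did not pass over probe sets (adjusted p = 0.564 and 0.293). When its probe sets were averaged, Slc38a2 no longer passed (0.21, adjusted p = 0.0749), nor did it on the most variable one (0.12, adjusted p = 0.556).

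Slc38a7, a lysosomal carrier that exports glutamine and asparagine, is read by a single probe set. It read 543.5, 612.3 and 737.1 in IL3 and 760.1, 916.4 and 1072 with SCF, again without overlap. The means were 633 ± 75.5 and 920 ± 105 (SD, n = 6), a rise of 0.53 ± 0.09 on the log2 scale (1.44-fold, adjusted p = 0.000784). This gene and Slc7a4 passed under all 11 alternative settings and with any one of the 12 arrays left out.

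Slc38a9 encodes the lysosomal arginine sensor that acts on mTORC1 through the Rag GTPases. Its brightest probe set read 3218, 4051 and 4317 in IL3 and 4054, 4633 and 5378 with SCF, so 5 of 6 SCF arrays lay above all IL3 arrays. The means were 3912 ± 398 and 4702 ± 471 (SD, n = 6), and the log2 change was 0.27 ± 0.08 (adjusted p = 0.0279). All 7 probe sets of Slc38a9 changed in the same direction, by 0.16 to 0.88, and 5 of the 7 passed over probe sets, where 30.9% of 27167 kept probe sets did. The largest change was in the dimmest, with 177.6 to 288.3 in IL3 and 301.0 to 504.4 with SCF (0.88 ± 0.13, adjusted p = 0.000353). The call on the brightest probe set was lost without IL3 replicate 4 (adjusted p = 0.0585), or SCF replicate 2 (0.0517), 4 (0.0631) or 6 (0.0609).

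The other tested genes of the family did not pass. Slc38a1, a glutamine carrier of the cell surface, had a log2 change of 0.16 with an interval of 0.02 to 0.31 (adjusted p = 0.0712). Slc38a10 had -0.21 (interval -0.39 to -0.02, adjusted p = 0.0765), and its 6 probe sets ran from -0.83 to 0.05 with 0 passing. Slc38a6 had -0.057 (interval -0.24 to 0.12).

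**Figure D3:**
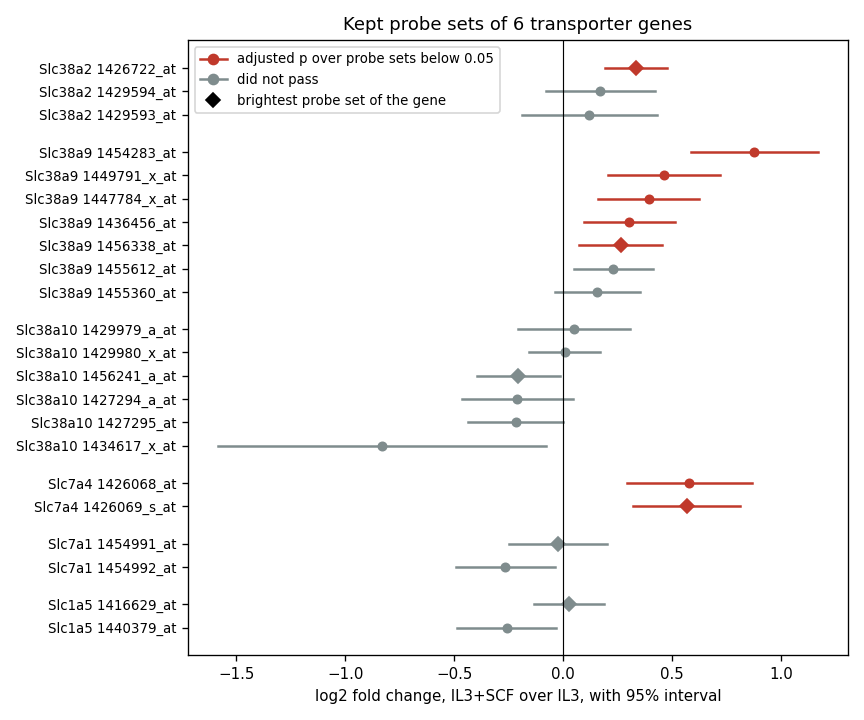
Log2 fold change of IL3+SCF over IL3 with its 95% interval for every kept probe set of 6 transporter genes, with the brightest probe set of each gene as a diamond. All 7 probe sets of Slc38a9 lie right of 0, those of Slc38a10 lie on both sides, and both kept probe sets of Slc7a4 lie at 0.57 and 0.58.

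The Slc3 and Slc7 families form the paired exchangers. Slc3a2 encodes CD98, the heavy chain that brings light chains such as Slc7a5, Slc7a6, Slc7a8 and Slc7a11 to the cell surface. It fell with SCF. Its probe set read 18610, 21140 and 23520 in IL3 and 15510, 17540 and 19020 with SCF, and 4 of 6 SCF arrays lay below all IL3 arrays. The means were 21210 ± 1863 and 17530 ± 1294 (SD, n = 6), and the log2 change was -0.27 ± 0.07 (interval -0.43 to -0.12, adjusted p = 0.00954). With each array centred on its median it was -0.30 and did not pass (adjusted p = 0.0754), and it did pass with any one array left out. Slc3a1, the heavy chain of the cystine and dibasic amino acid exchanger of kidney and gut, had 0.052 (interval -0.13 to 0.23), and its partner Slc7a9 was too dim to test.

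Among the light chains that pair with CD98, 0 of the 4 tested passed, where 35.4% of all genes did. Slc7a5, or LAT1, exchanges glutamine for leucine and other large neutral amino acids and is high in dividing and activated lymphocytes. It read 2089, 2364 and 3848 in IL3 and 1792, 2569 and 2944 with SCF. The ranges overlapped in part, with IL3 replicate 1 above all SCF arrays and SCF replicate 4 below all IL3 arrays. The means of Slc7a5 were 2630 ± 658 and 2510 ± 383 (SD, n = 6), and its log2 change was -0.050 ± 0.15 (interval -0.38 to 0.28, adjusted p = 0.831). Slc7a8, a relative with a broader choice of neutral amino acids, had -0.20 (interval -0.39 to -0.01, adjusted p = 0.0943), and passed without IL3 replicate 1 (-0.25, adjusted p = 0.0387). Slc7a6, which exchanges cationic for neutral amino acids, had -0.083 (interval -0.21 to 0.04), and its other probe set had 0.11.

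Slc7a11, or xCT, takes up cystine in exchange for glutamate and so feeds glutathione synthesis. It was near the dim level in both groups, with 54.1, 90.02 and 118 in IL3 and 59.9, 84.4 and 128 with SCF. The means were 86.1 ± 25.9 and 92.1 ± 28.9 (SD, n = 6), and the log2 change of 0.082 ± 0.20 had an interval of -0.35 to 0.52 (adjusted p = 0.787). A change of any size within that interval is therefore not excluded at this signal. Its other probe set was too dim to test, with 19.2 to 75.03 in IL3 and 65.1 to 138.8 with SCF. Whether the change of Slc3a2 differed from those of its partners was not tested.

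Slc7a4 belongs by sequence to the cationic amino acid carriers, although transport by it has not been settled. It had the largest rise of the members. Its brightest probe set read 527.3, 581.2 and 840.2 in IL3 and 826.4, 875.1 and 1072 with SCF. One IL3 array, replicate 5 at 840.2, lay within the SCF range, and 5 of 6 SCF arrays lay above all IL3 arrays. The means were 621 ± 116 and 920 ± 105 (SD, n = 6), a log2 change of 0.57 ± 0.11 (1.48-fold, adjusted p = 0.00173). A further kept probe set gave 0.58 and passed as well (adjusted p = 0.00509).

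The main arginine and lysine importer of most cells, Slc7a1, read 5788, 6208 and 7884 in IL3 and 5123, 6274 and 7765 with SCF, with the groups overlapping. Its means were 6472 ± 805 and 6374 ± 866 (SD, n = 6), and its log2 change was -0.024 ± 0.10 (interval -0.25 to 0.20, adjusted p = 0.878). A dimmer probe set gave -0.27 and did not pass (adjusted p = 0.0733). Slc7a3 had 0.14 (interval -0.35 to 0.62), Slc7a12 had -0.11 (-0.92 to 0.69), Slc7a13 had -0.42 (-1.31 to 0.48) and the opposite-strand gene Slc7a6os had -0.073 (-0.36 to 0.21). Slc7a13 passed without IL3 replicate 4, its dimmest array (-0.79, adjusted p = 0.0355).

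**Figure D4:**
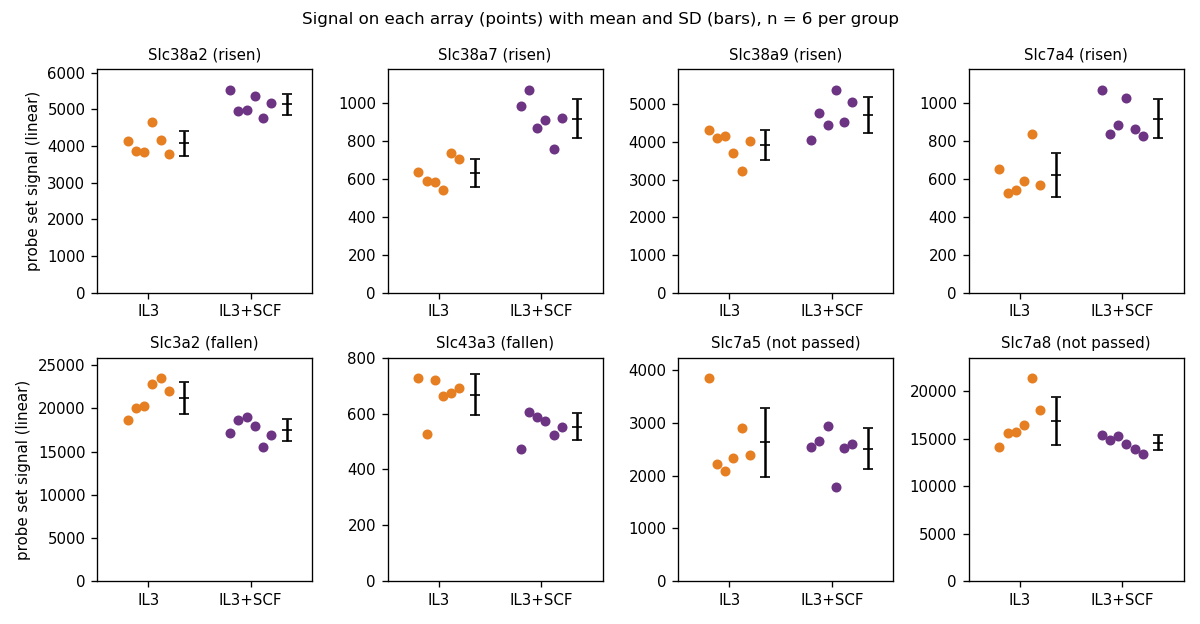
Probe set signal on each of the 12 arrays (points, replicates 1 to 6 from left to right within a group) with the mean and SD of each group (bars, n = 6) for the 6 genes that passed and for Slc7a5 and Slc7a8, on linear axes that start at 0. The groups do not overlap for Slc38a2 and Slc38a7, and they overlap by 1 or more arrays in the other 6 panels.

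The Slc1 family holds the glutamate carriers of brain and 2 sodium-dependent exchangers of neutral amino acids. Of its 3 tested genes 0 passed, where 35.4% of all genes did. Slc1a5, or ASCT2, a main route of glutamine uptake in dividing cells, read 1092, 1257 and 1372 in IL3 and 1158, 1275 and 1377 with SCF, with nearly the same range in both groups. Its means were 1249 ± 104 and 1273 ± 103 (SD, n = 6). The log2 change was 0.027 ± 0.07 (interval -0.13 to 0.18, adjusted p = 0.801), and a dimmer probe set gave -0.26 (adjusted p = 0.0782). Slc1a4, which exchanges alanine, serine and cysteine, had 0.059 (interval -0.20 to 0.32). Slc1a2 had -0.034 with a wide interval of -0.83 to 0.76.

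Slc36 genes encode proton-coupled carriers of small amino acids, and 0 of the 2 tested passed, where 35.4% of all genes did. Slc36a1, found on lysosomes and in the brush border of the gut, read 2585, 3127 and 3423 in IL3 and 2491, 2619 and 3091 with SCF. Of the SCF arrays, 3 lay below all IL3 arrays. The means were 3083 ± 306 and 2708 ± 251 (SD, n = 6), and the log2 change of -0.19 ± 0.08 (interval -0.36 to -0.01) did not pass (adjusted p = 0.0928). It passed without IL3 replicate 6 (-0.23, adjusted p = 0.0303) and without SCF replicate 4 (-0.22, adjusted p = 0.0498). Slc36a4 had 0.051 (interval -0.12 to 0.22). On chromosome 11 Slc36a2 lies beside Slc36a1, and Slc36a3 beside Slc36a2, with no protein-coding gene between the genes of either pair. Slc36a2 and Slc36a3 were too dim to test.

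Slc43 genes encode sodium-independent carriers. Slc43a3, which transports purine bases such as adenine and not amino acids, fell with SCF. It read 526.7, 682.7 and 727.5 in IL3 and 474.2, 561.7 and 606.0 with SCF, and 2 of 6 SCF arrays lay below all IL3 arrays. The IL3 array at 526.7, replicate 2, lay inside the SCF range, and the 5 others lay above it. The means were 667 ± 73.3 and 553 ± 47.7 (SD, n = 6), and the log2 change was -0.26 ± 0.08 (interval -0.44 to -0.08, adjusted p = 0.0284). The call was lost without IL3 replicate 1 (adjusted p = 0.0600), 3 (0.0626) or 6 (0.0576), or SCF replicate 1 (0.0591) or 5 (0.0575). Slc43a2, a carrier of large neutral amino acids, had -0.16 (interval -0.42 to 0.10). Slc43a1, another such carrier, lies next to Slc43a3 with 1 protein-coding gene between and was too dim to test.

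The list of amino acid carriers of other families had genes with larger changes than any of the 25 members, with 4 of 20 tested genes risen, 5 fallen and a median of -0.066. Slc15a4, a lysosomal carrier of histidine and peptides, rose by 0.69, and Slc6a6, the taurine carrier, by 0.32. The risen count was 2 with the replicate block, with the most variable probe set and without IL3 replicates 3 and 6. Slc6a13 (-1.87, adjusted p = 1.3e-08) and Slc6a12 (-1.77), both carriers of GABA, fell. Each count here and below is one of tested genes against the same shares of all genes, 18.9% risen and 16.6% fallen, and these lists carry no test of their own.

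Of 38 genes of mTORC1, its amino acid sensing, its other regulators and its targets, 11 rose and 2 fell, with a median of 0.084. Castor1, an arginine sensor, rose by 1.03 and Sesn3, a relative of the leucine sensor Sestrin2, by 0.87. Its other probe sets went down to 0.17. Deptor (-0.40), an inhibitor of mTOR, and Itfg2 (-0.37), a subunit of the KICSTOR complex that holds a regulator of mTORC1 on the lysosome, fell. Under median centring 7 of the 38 rose.

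In the amino acid and integrated stress response, which acts on several carrier promoters, 3 of 27 genes rose (5 without IL3 replicate 1) and 6 fell, with a median of -0.044. Cebpg, a partner of ATF4, rose by 0.41 and Eif2ak1, a kinase of the translation factor eIF2, by 0.37, although another probe set of the latter had -0.20. Cebpb (-1.82, other probe sets up to -0.57) and Ppp1r15a (-1.19), which reverses eIF2 phosphorylation, fell. Atf4 itself fell by 0.36 (adjusted p = 0.00207), and is named here after its value was seen. Of 19 cytosolic tRNA synthetases 1 rose (Sars, 0.24) and 3 fell, among them Farsb (-0.52) and Hars (-0.19), with a median of -0.17. These counts were not stable: 0 rose and 1 fell with median centring, no filter or the replicate block, and 5 fell with the mean of probe sets. The risen count was also 0 without IL3 replicate 2, 3 or 4, without SCF replicate 2, 3 or 4, and without IL3 replicates 3 and 6, and was 2 without IL3 replicates 4 and 5.

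Where cystine and glutathione are concerned, 1 of 15 genes rose and 5 fell, with a median of -0.073. Nqo1 (-1.22) and Srxn1 (-0.63), enzymes under the factor NRF2, fell. The gene of NRF2, Nfe2l2, rose by 0.65 on its brightest probe set and had -0.93 on another, and 0 genes of the list rose with the mean or the most variable probe set. In arginine, polyamine and glutamine metabolism 4 of 13 rose, among them Arg2 (0.47) and Asl (0.32), and 3 fell, among them Odc1 (-0.79) and Srm (-0.36), enzymes of polyamine synthesis. The median was -0.12, and 2 rose with median centring.

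Among partners and regulators of the carriers 3 of 12 rose and 2 fell, with a median of -0.052. The fallen count was 1 with median centring, the mean or most variable probe set, and without IL3 replicates 3 and 6. Sgk1, a kinase that keeps carriers at the cell surface, rose by 1.00 and Mycn by 0.63. Myc (-0.34) and Nedd4l (-0.25, another probe set 0.14), a ubiquitin ligase that removes carriers from the surface, fell. Of 33 cell cycle genes 28 fell, among them Birc5 (-2.40) and Ccna2 (-2.17), and 1 rose (Cdc6, 0.65), or 2 without SCF replicate 1, with a median of -1.23. The part of cell division in the transporter values was not tested.

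**Figure D5:**
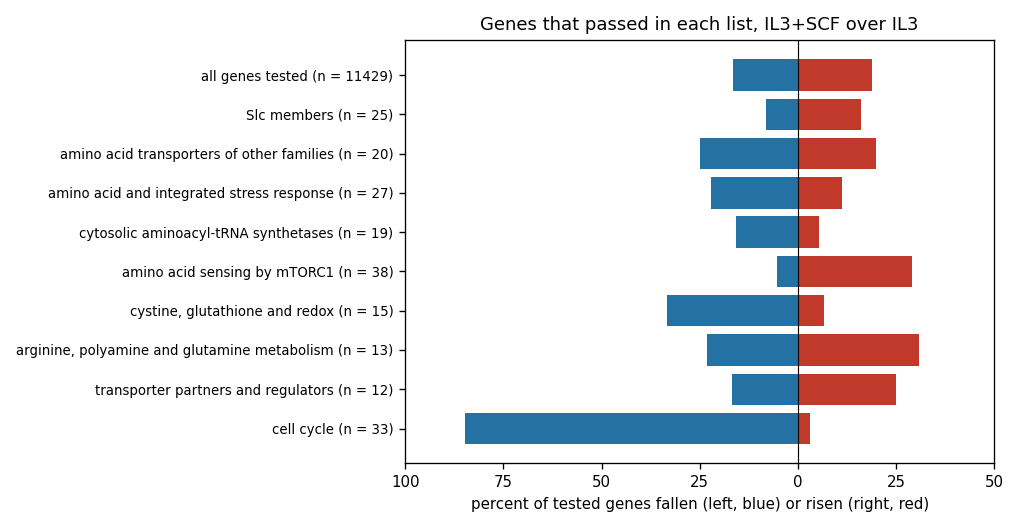
Percent of tested genes that fell (blue, left) and rose (red, right) with SCF among all genes, the 25 tested members and 8 lists of related genes, with the number tested in brackets. The members lie below the bar of all genes on both sides, and the cell cycle list has the longest bar, with 28 of 33 fallen.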

How the data were processed

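Gene expression of 12 samples was read from a single table of linear probe set intensity. Before deposition the authors amplified the RNA with a whole-transcript kit, per the labels, and made the intensity values with GCOS 1.4, per the submitters' processing notes. How background and scale were set is not given in the sources used here. The values were not normalized again, and array medians ran from 151 to 203. Intensity on an array is not comparable between probe sets.

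Of 45101 probe sets, 64 controls were left out and 34945 had 1 gene symbol in GEO's platform annotation. All 42 member symbols matched RefSeq through their Entrez identifier. Signals were taken as log2(signal + 16), which understates changes of dim genes. Probe sets above the 40th percentile on at least 6 arrays were kept (27167, of which 48 of members), and the brightest stood for its gene. The comparison of the groups was a two-sided limma test (lmFit, then eBayes) without covariates, version 3.58.1 under R 4.3.3, with Benjamini-Hochberg adjustment over 11429 genes, or over 27167 probe sets where stated. The fitting was tested on simulated data. Lists are given by counts and medians only. Figures used matplotlib 3.10.9 in Python 3.11.15. The number of arrays, 6 per group, limits the precision.

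Members and lists were chosen with earlier results of these data known. Full values are given for members that passed and for Slc3a2, Slc7a5, Slc7a11, Slc1a5, Slc7a1, Slc38a2 and Slc36a1. From each list at most 2 risen and 2 fallen genes with the largest change are named, or that with the smallest p. The 11 alternative settings were a replicate block, array weights, eBayes with trend and robust, the mean or the most variable probe set, a filter at the 60th percentile or none, a pseudocount of 1 or 64, and centring on medians or quantile normalization. Single arrays were left out in turn, with the required number of bright arrays lowered to match the smaller group, as were IL3 replicates 3 and 6, or 4 and 5, together. 0 arrays held values identical to another.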

Additional observations from a re-analysis of the deposited data

Results flagged for a closer look

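In 4 of the 50 groups of 6 arrays read for the 25 tested genes, a single array lay far from the rest, with a gap to its nearest neighbour that took up more of the group's range than Dixon's 95% critical value. Chance alone marks groups at a rate of about 0.05.

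Slc7a6, a light chain of CD98, read 6518 on IL3 replicate 2, and the 5 others lay between 5904 and 6063. On the same array Slc43a3 was low, at 526.7, where the 5 others lay between 664.3 and 727.5. Slc7a5 was low on IL3+SCF replicate 4, at 1792, with the others at 2529 to 2944. Slc7a13 was low on IL3 replicate 4, at 13.5, with the others at 87.2 to 192, and this gene was dim on many arrays.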

How the results depend on the processing

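Slc38a7 and Slc7a4 passed under all 11 settings and with any one array left out. Slc3a2 and Slc38a2 passed with any one array left out, Slc3a2 in 10 of the 11 settings and Slc38a2 in 8. Of 620 values of member genes under alternatives, 553 kept both direction and side of the threshold, 23 no longer passed, 11 newly passed and 33 changed sign, in 12 genes that did not pass. With median centring 24.3% of all genes passed, in place of 35.4%, and 1369 rose. Of the members 2 rose (Slc38a7 and Slc7a4) and 0 fell. Adjusted p was then 0.0528 for Slc38a2, 0.0633 for Slc38a9, 0.0754 for Slc3a2 and 0.0503 for Slc43a3. With no filter Slc38a9 (0.0603) and Slc43a3 (0.0613) were lost. Slc7a10 (log2 change 0.73, adjusted p = 0.0297) and Slc36a1os (-1.10, adjusted p = 0.0105) then passed. For either gene 0 arrays exceeded the dim level, so these changes rest on dim signals alone.

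Replicate numbers were shared between the groups. Same-numbered samples correlated at -0.19 to 0.36 in their deviations, and only replicate 6 correlated best with its own number. With 6 samples per group, these values cannot tell whether same-numbered samples were paired. With the replicate block 29.1% of all genes passed, in place of 35.4%. Of the members 3 rose and 1 fell, and Slc38a9 (adjusted p = 0.0705) and Slc43a3 (0.0884) did not pass. Leaving out 1 array at a time, 1 to 3 members fell, and 31.5% to 38.2% of all genes passed. Without IL3 replicates 4 and 5, Slc38a9 (0.18, adjusted p = 0.109) and Slc43a3 (-0.26, adjusted p = 0.0785) did not pass and Slc7a13 did (-0.88, adjusted p = 0.0359). Slc38a1 passed with quantile normalization (0.19), trend and robust eBayes (0.16), array weights (0.18) and without SCF replicate 6 (0.21), and Slc38a10 with trend and robust eBayes (-0.21).

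Signs changed in genes that did not pass. With array weights Slc1a2 had 0.15 and Slc7a5 0.0087. With the mean of probe sets Slc1a5 had -0.12 and Slc7a6 0.016, and with the most variable probe set they had -0.26 and 0.11, and Slc43a2 0.014. With quantile normalization Slc7a6os had 0.026. Without IL3 replicates 3 and 6, Slc1a4 had -0.055, Slc1a5 -0.025 and Slc36a4 -0.020, and without 4 and 5 Slc7a3 had -0.078 and Slc7a6os 0.013. Leaving out 1 array at a time gave -0.26 to 0.19 for Slc1a2, -0.0019 to 0.13 for Slc1a4, -0.010 to 0.055 for Slc1a5, -0.083 to 0.036 for Slc7a1, -0.018 to 0.18 for Slc7a11, -0.45 to 0.024 for Slc7a12, -0.11 to 0.065 for Slc7a5 and -0.16 to 0.10 for Slc7a6os. The cause was not tested. The 5 genes dim on some arrays have the widest intervals, from -0.35 to 0.52 for Slc7a11 and from -1.31 to 0.48 for Slc7a13. Changes within its interval are not excluded for any of these genes.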

Other observations

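Beyond the genes named by rule, others were chosen after their values were seen. Slc16a10, a carrier of aromatic amino acids, fell from a median of 1145 in IL3 to 436.5 with SCF (-1.45, adjusted p = 3.4e-06), and its other probe sets gave up to -1.37. Slc25a44, a mitochondrial carrier of branched-chain amino acids, fell from 7278 to 3404 (-0.99, adjusted p = 0.000131). Glul, which makes glutamine from glutamate, fell from 27860 to 23270 (-0.29, adjusted p = 0.00168). Castor2, the partner of Castor1, rose from 1569 to 2589 (0.76, adjusted p = 4.3e-06). Gclc (-0.37) and Gclm (-0.46), the subunits of the enzyme that starts glutathione synthesis, both fell (adjusted p = 0.00243 and 0.0174). The arrays of the groups did not overlap for Slc16a10, Slc25a44, Glul and Castor2, as for 19.1% of all genes.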
